A study of Homo sapiens with 4 samples.

Results

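The genes described here are the autophagy machinery of HCT116, an established line of human colon cancer cells, with and without hydrogen peroxide (H2O2). They were taken by name from the deposited table, as the gene symbols that start with ATG and a digit, GABARAP, MAP1LC3 or WIPI, together with SQSTM1, NBR1, OPTN, ULK1, ULK2, BECN1, RB1CC1, PIK3C3, PIK3R4, UVRAG, AMBRA1 and TFEB. The naming rule uses no measured value, although earlier results of these data were known when it was written. By it, 36 of the 16376 listed genes were members. Of these, 35 had a mean normalized count of at least 10 and 34 of at least 50.

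The study sequenced polyadenylated RNA from 2 untreated HCT116 samples (Control) and 2 samples exposed to H2O2. All 4 samples are of this line, and the labels give neither the H2O2 dose nor the exposure time. Separate cultures are not mentioned in the labels. The p-values set the difference between groups against the variation within groups of these 4 samples only, and that variation may be technical. The deposited table holds group means, A and B. The table's name puts Control first, so A was read as Control and B as H2O2, and every direction below rests on that order.

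Values per library were obtained by solving each group mean for the pair of whole read counts behind it, which had exactly 1 solution in each group for all 16376 genes. The libraries could not be tied to replicate numbers and are named by their depth within each group, deeper or shallower. The Control libraries held 7309731 and 6892854 reads in listed genes and the H2O2 libraries 7365032 and 6858809. The deeper Control library stood apart from the rest. The chi-square per degree of freedom over genes was 6.83 between the Control libraries and 2.32 between the H2O2 libraries, and it was 11.1 and 12.4 between the deeper Control library and the H2O2 libraries. The Control-to-H2O2 values for the shallower Control library were 5.71 and 6.47. Of 10 colon epithelium markers, 8 were listed (CEACAM5 and LGALS4 were not), with a summed normalized count of 9904 and 11647 in Control and 12940 and 12368 in H2O2. CLDN4 was higher in the authors' deposited table, and no other of the 8 passed. There CDH1, CDX2 and VIL1 had log2 fold changes of -0.041, -0.22 and -0.18, and the others lay above 0. Of 6 fibroblast markers, 3 were listed (COL1A2, DCN and LUM were not), at 1017 and 933 in Control and 813 and 754 in H2O2. COL1A1 was lower in the authors' deposited table, with a log2 fold change of -0.45, while COL3A1 at 0.095 and PDGFRB at -0.39 did not pass. Of 6 immune cell markers, 2 were listed (PTPRC, CD3E and LYZ were among those that were not), at 8.63 and 17.4 in Control and 27.0 and 22.9 in H2O2, and CD14 among them was higher in the same table. Of 5 endothelial markers only KDR was listed, at 6.71 and 6.16 in Control and 13.5 and 8.32 in H2O2. The part of these differences in the results below was not tested.

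Macroautophagy encloses cytoplasm in a double membrane, the autophagosome, and delivers it to lysosomes for breakdown. The ULK kinase complex starts the process, the class III PI3-kinase complex marks the growing membrane with phosphatidylinositol 3-phosphate (PI3P), and ATG2 and ATG9 proteins supply lipid. A pair of ubiquitin-like reactions then attaches ATG8 proteins (the LC3 and GABARAP families) to the membrane, where cargo receptors such as SQSTM1 bind them. Oxidants, H2O2 among them, are known inducers of autophagy, and much of its control is exerted on proteins. The counts here measure RNA and say nothing of ATG8 lipidation or of autophagic turnover.

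Of this machinery, ATG16L2 fell with H2O2 and no other gene passed the test. In the authors' deposited table, 1 of 36 members was past an adjusted p of 0.05 (DESeq with Benjamini-Hochberg adjustment over all listed genes), and it was ATG16L2, which was lower in H2O2. That is 2.78% of the members, beside 7.19% of all listed genes (1178 of 16376). By direction, 0 members were higher, beside 2.58% of all genes, and 1 was lower, beside 4.62% of all genes. The test of limma on the 4 libraries also called ATG16L2 and no other member, where it called 4.10% of all genes (671 genes). At an adjusted p under 0.10 the authors' deposited table had 4 members (ATG16L2, ATG4B, ATG2A and ATG3), beside 10.1% of all genes. At an unadjusted p under 0.05 the authors' deposited table had 7 members, 2 higher and 5 lower, beside 19.6% of all genes, and limma also had 7, 2 higher and 5 lower. In bulk RNA, fewer cells of a kind and less RNA per cell cannot be told apart, here and in all results that follow.

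The members' differences were small. In the authors' deposited table their median log2 fold change (H2O2 over Control) was 0.034, beside 0.00029 for all listed genes, with 20 members above 0 and 16 below. The middle 50% of the members lay between -0.10 and 0.12 and their whole range was -0.60 to 0.36. The median absolute log2 fold change in the same deposited table was 0.11 for the members and 0.17 for all listed genes of mean at least 50. The 95% interval that limma gave lay within 1.5-fold in both directions for 27 of the 36 members and within 2-fold for 35, the exception being the low-count MAP1LC3B2. Among genes of mean at least 50 it lay within 1.5-fold for 26 of 34 members and for 8745 of 12118 listed genes. The median half-width of the interval there was 0.274 for the members and 0.289 for the listed genes, so the 2 were alike. Both H2O2 libraries lay above both Control libraries for 8 members and below them for 8, beside 26.3% and 25.6% of all listed genes. The other 20 members overlapped between the groups.

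**Figure D1:**
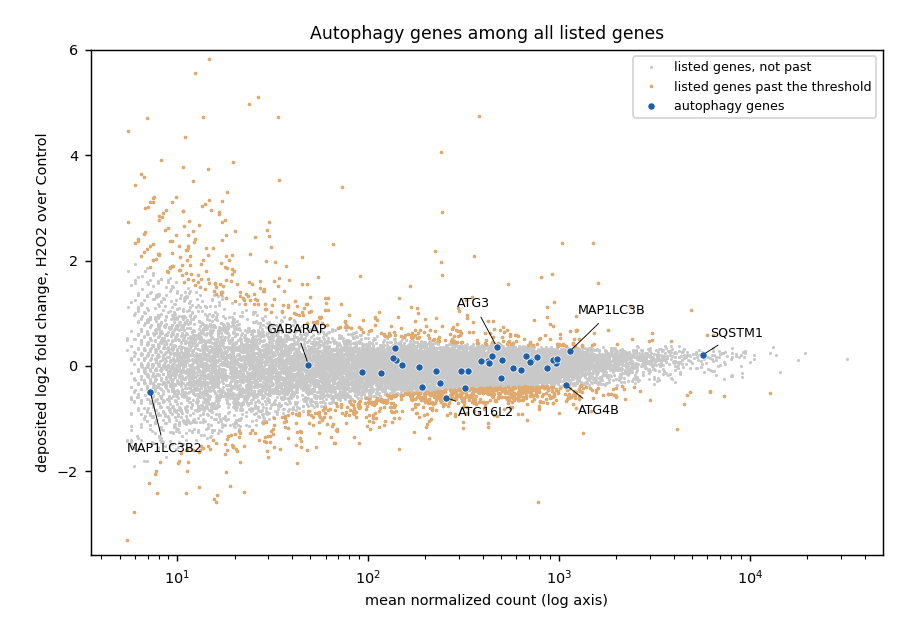
Deposited log2 fold change of H2O2 over Control (vertical axis) against the mean normalized count (log axis) for each listed gene, 1 point a gene: members in blue, genes past the authors' adjusted p of 0.05 in orange, all others in grey, and 1 gene with no Control reads not drawn. The members lie between -0.60 and 0.36, inside the grey band, apart from ATG16L2.

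**Figure D2:**
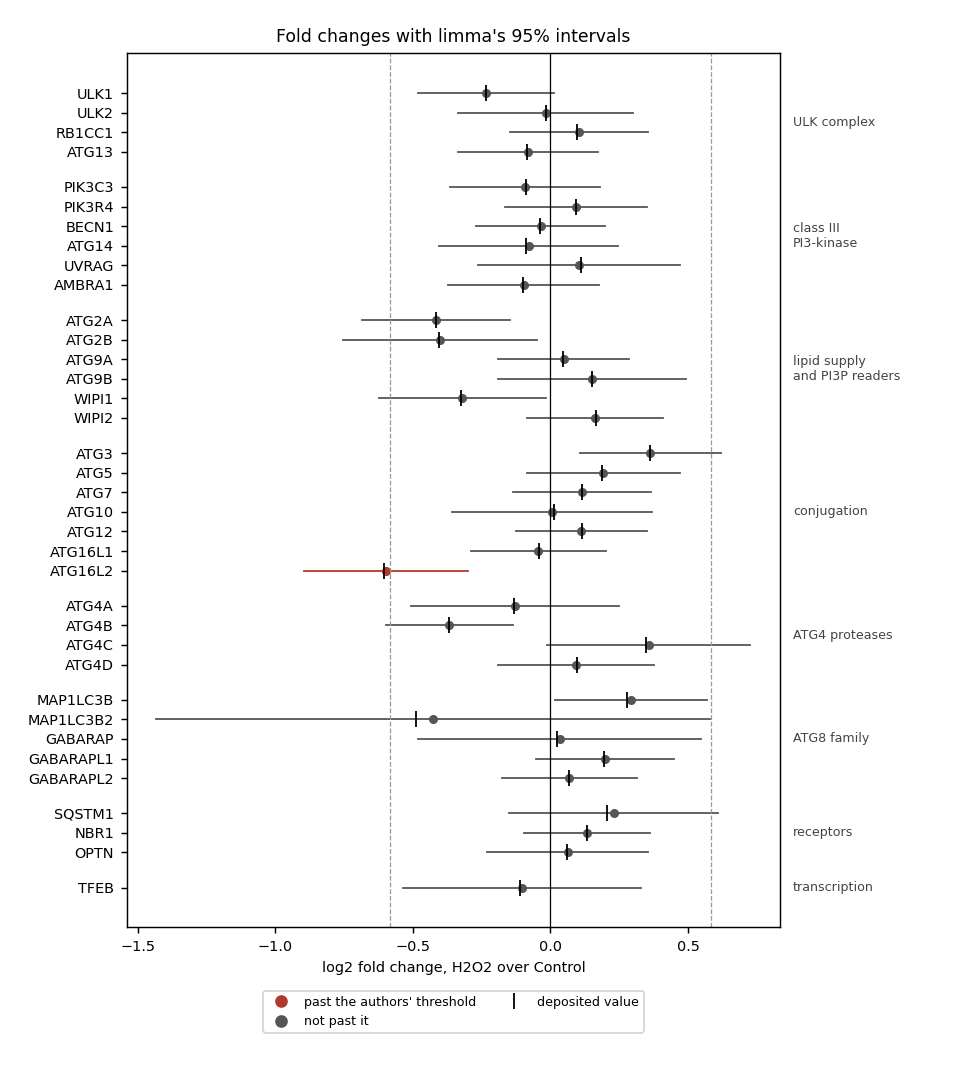
Log2 fold change of H2O2 over Control for the 36 members, in order of role: points and bars give the limma estimate with its 95% interval, short vertical ticks the deposited value, and dashed lines mark 1.5-fold. ATG16L2, in red, is the member past the authors' threshold, and 27 of the 36 intervals lie between the dashed lines.

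ATG16L2 encodes a paralog of ATG16L1, the protein that carries the ATG12-ATG5 conjugate to the membrane where ATG8 proteins are attached. ATG16L2 is known to bind ATG5 but is not needed for canonical autophagy. Its normalized count was 286 and 336 in the deeper and shallower Control libraries and 204 and 205 in the H2O2 libraries, from 298, 327, 211 and 197 reads. Both Control libraries lay above both H2O2 libraries, which were nearly equal. In the authors' deposited table ATG16L2 was lower with a ratio of 0.658, a log2 fold change of -0.60 and a DESeq adjusted p of 0.00492. By limma the log2 fold change was -0.60 with a standard error of 0.14, a 95% interval of -0.89 to -0.30 and a Benjamini-Hochberg adjusted p of 0.0255. With the deeper Control library left out its limma adjusted p was 0.000134, and with the shallower left out 0.0125. With the deeper or the shallower H2O2 library left out it was 0.147 or 0.102, while the log2 fold change was -0.59 or -0.60, as with all 4 libraries. Fewer genes were called in those fits altogether (1.73% and 3.13% of all genes). Without the deeper and the shallower Control library the log2 fold change was -0.71 and -0.48. The neighbouring gene FCHSD2 lies on the opposite strand and shares 680 exonic bases with ATG16L2, 7.89% of its exonic length, and whether counting used strand is not given in the sources used here. FCHSD2 had 230 and 200 reads in Control and 244 and 216 in H2O2, and a log2 fold change of 0.11 (adjusted p 0.786) in the authors' deposited table. No 75-base word of the ATG16L2 transcripts occurred in those of another gene.

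ATG16L1, the canonical partner, did not pass the test. Its normalized count was 584 and 585 in Control and 539 and 596 in H2O2, so that the groups overlapped. The log2 fold change was -0.043 with an adjusted p of 0.918 in the authors' deposited table, and the limma interval ran from -0.29 to 0.20. The ratio of ATG16L2 to ATG16L1 normalized counts was 0.489 and 0.574 in Control and 0.378 and 0.344 in H2O2. The difference between the paralogs' responses was not tested.

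The start regions of these paralogs and of ATG3, the member with the highest fold change, are printed so that the letters around their starts can be compared. Each runs from 250 bases before to 30 after the annotated start in RefSeq (GRCh38.p14), 5′ to 3′ on the gene's strand. Capitals mark matches to the 6 motifs listed with the promoter results below. ATG16L2 lies at chr11:72814161-72814440 on the + strand, ATG16L1 at chr2:233251423-233251702 on the + strand and ATG3 at chr3:112561933-112562212 on the - strand.
ATG16L2: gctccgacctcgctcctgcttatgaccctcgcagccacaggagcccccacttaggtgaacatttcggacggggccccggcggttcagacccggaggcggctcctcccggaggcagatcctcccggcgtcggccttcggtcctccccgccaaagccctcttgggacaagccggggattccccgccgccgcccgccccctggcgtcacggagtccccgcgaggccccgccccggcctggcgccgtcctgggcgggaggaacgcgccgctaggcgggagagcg
ATG16L1: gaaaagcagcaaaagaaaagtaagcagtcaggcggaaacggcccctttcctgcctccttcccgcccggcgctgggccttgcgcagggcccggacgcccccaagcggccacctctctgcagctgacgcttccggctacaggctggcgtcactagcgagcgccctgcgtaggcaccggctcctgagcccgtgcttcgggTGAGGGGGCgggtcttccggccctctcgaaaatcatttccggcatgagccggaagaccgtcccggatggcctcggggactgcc
ATG3: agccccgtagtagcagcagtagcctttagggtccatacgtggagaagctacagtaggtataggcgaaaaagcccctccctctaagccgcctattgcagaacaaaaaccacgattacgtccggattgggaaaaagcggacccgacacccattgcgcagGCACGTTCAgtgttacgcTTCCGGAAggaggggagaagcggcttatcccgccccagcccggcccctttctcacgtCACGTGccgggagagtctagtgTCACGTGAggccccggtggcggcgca
The ATG16L2 window held no match and was 75.3% G and C over its full 300 bases. ATG16L1, at 66.7%, held 1 match to the antioxidant response element core, beginning 53 bases before the start. ATG3, at 59.0%, held 2 E-boxes, beginning 18 bases before the start and at base 6 after it. The later E-box sits inside a longer match to the flanked form of the lysosomal CLEAR element. ATG3 also held an antioxidant response element core beginning 93 bases before the start and a match to the inner part of the heat shock element beginning 75 bases before it. A match is a description of letters and not a binding site, and no binding was measured.

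None of the 4 listed genes of the ULK complex, which starts autophagy downstream of nutrient and energy sensors, passed the test. ULK1, its main kinase, had a normalized count of 522 and 557 in Control and 447 and 470.2 in H2O2. Both H2O2 libraries lay below both Control libraries, but the log2 fold change of -0.24 had an adjusted p of 0.358 in the authors' deposited table. ULK2, the related kinase, had 189.8 and 182 in Control and 195 and 173 in H2O2, with the groups overlapping. RB1CC1 (FIP200), the scaffold of the complex, had 752 and 635 in Control and 744 and 741 in H2O2. Here only the shallower Control library stood apart. ATG13, the adaptor that links ULK kinases to RB1CC1, had 696 and 607 in Control and 648 and 581 in H2O2. The groups overlapped for ULK2, RB1CC1 and ATG13, with adjusted p-values of 0.774 to 1 in the authors' deposited table.

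None of the 6 genes of the class III PI3-kinase complex and its partners passed either. PIK3C3 (VPS34) makes PI3P, and its normalized count was 344 and 347 in Control and 303 and 346 in H2O2. PIK3R4 (VPS15), its regulatory subunit, had 419.8 and 400.3 in Control and 416 and 459 in H2O2. BECN1, the subunit that BCL2 family proteins bind, had 843 and 918 in Control and 846 and 871 in H2O2. The groups overlapped for all of these. ATG14, which directs the complex to autophagosome formation sites, had 263 and 205 in Control and 229 and 211 in H2O2. UVRAG, which takes its place in the endosomal form, had 143 and 127 in Control and 129 and 162 in H2O2. AMBRA1, a BECN1 partner, had 333 and 305 in Control and 304 and 291 in H2O2, so that the groups just failed to overlap. The adjusted p-values of the 6 genes ran from 0.795 to 0.935 in the authors' deposited table.

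After ATG16L2, the lowest fold changes among members of mean at least 50 were in the lipid supply genes, and none of these passed the test. ATG2A, 1 of the paired proteins that transfer lipid from the endoplasmic reticulum to the growing membrane, had a normalized count of 363 and 372 in Control and 267 and 283 in H2O2. The groups did not overlap, and the replicates of each group lay close together. Its ratio was 0.749, its log2 fold change -0.42 and its adjusted p 0.0693 in the authors' deposited table. By limma the log2 fold change of ATG2A was -0.42 with a standard error of 0.13, a 95% interval of -0.69 to -0.15 and an adjusted p of 0.0775. ATG2B, its paralog, had 245 and 193 in Control and 149.6 and 181 in H2O2. The nearest libraries of the 2 groups were thus 193 and 181. The ratio of ATG2B was 0.754, its log2 fold change -0.41 and its adjusted p 0.124 in the authors' deposited table, and limma gave -0.40 with a standard error of 0.17, an interval of -0.75 to -0.049 and an adjusted p of 0.189. Without the deeper Control library the limma value of ATG2B was -0.23, and without the shallower it was -0.57.

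WIPI proteins read PI3P, and the listed WIPI genes had values on opposite sides of 0. WIPI1 had a normalized count of 244 and 284 in Control and 202 and 221 in H2O2, with a log2 fold change of -0.32 and an adjusted p of 0.244 in the authors' deposited table. WIPI2, which recruits ATG16L1, had 718 and 724 in Control and 873 and 746 in H2O2, with a log2 fold change of 0.17 and an adjusted p of 0.510 in the authors' deposited table. Neither pair of groups overlapped, and neither gene passed the test. Of the exonic length of WIPI1, 24.3% overlaps ARSG on the opposite strand, and ARSG had a log2 fold change of -0.36 with an adjusted p of 0.267 in the authors' deposited table, so reads of these 2 genes may not be separable. The same limit holds for GABARAP (25.2%, AC120057.3), SQSTM1 (20.7%, MRNIP) and ATG7 (18.1%, VGLL4). It also holds for ATG4D (15%, KRI1), BECN1 (12.4%, CNTD1) and ATG9B (12.3%, NOS3), and some other members have smaller overlaps. ATG9A, a membrane protein of the vesicles that seed the autophagosome, had 896 and 999.8 in Control and 1009 and 949 in H2O2. ATG9B, its tissue-restricted paralog, had 131 and 126 in Control and 145 and 141 in H2O2. The adjusted p-values of ATG9A and ATG9B were 0.898 and 0.735 in the authors' deposited table. Of the 75-base words in ATG9A transcripts, 31.4% also occur in the gene model AC068946.2, so its count is less certain.

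**Figure D3:**
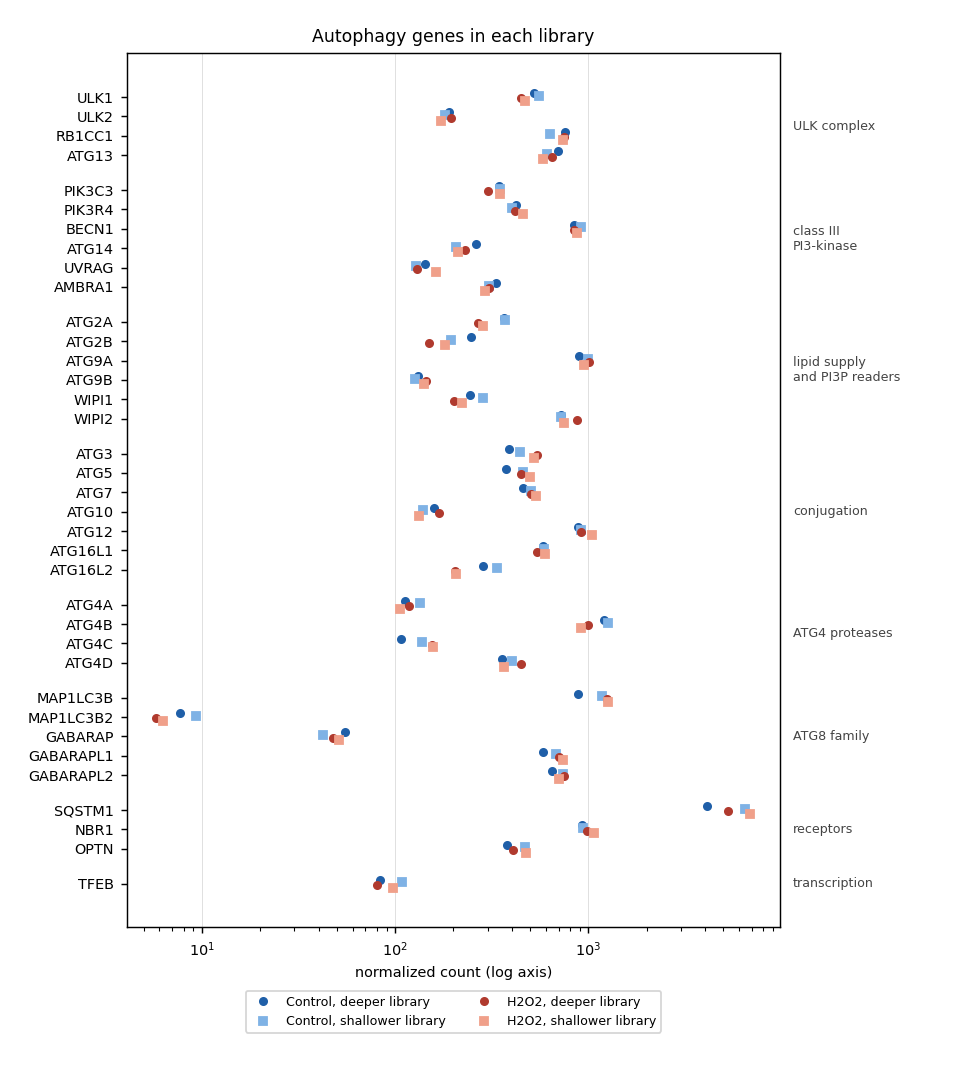
Normalized count (log axis) of each member in the 4 libraries, in order of role: circles are the deeper and squares the shallower library, blue Control and red H2O2. The libraries of most members lie close together, ATG16L2 has both H2O2 libraries near 204 below Control at 286 and 336, and SQSTM1 is the highest member in every library.

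Among the conjugation genes, ATG16L2 was lower as described, and the other 6 did not pass the test. ATG3 is the E2-like enzyme that transfers ATG8 proteins to phosphatidylethanolamine. Its normalized count was 389 and 439 in Control and 544 and 520.1 in H2O2, and both H2O2 libraries lay above both Control libraries. It had the largest positive difference of the members, with a ratio of 1.28, a log2 fold change of 0.36 and an adjusted p of 0.0975 in the authors' deposited table. By limma the log2 fold change of ATG3 was 0.36 with a standard error of 0.12, an interval of 0.11 to 0.62 and an adjusted p of 0.104. ATG5 and ATG12 form the conjugate that acts with ATG16L1. ATG5 had 375 and 457 in Control and 448 and 499 in H2O2, and ATG12 had 883 and 916 in Control and 910.3 and 1038 in H2O2. Both overlapped between the groups, with adjusted p-values of 0.493 and 0.699 in the authors' deposited table. ATG7, the E1-like enzyme of both reactions, had 458 and 505 in Control and 506 and 537 in H2O2. The nearest libraries of its groups were less than 1 normalized count apart. ATG10, the E2-like enzyme for ATG12, had 159 and 139.6 in Control and 168 and 133 in H2O2. The adjusted p-values of ATG7 and ATG10 were 0.721 and 1 in the authors' deposited table.

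ATG4 proteases trim ATG8 proteins before they are attached and release them from membranes afterwards. ATG4B, the family member known to act on the widest range of ATG8 proteins, had a normalized count of 1199 and 1260.5 in Control and 988 and 918 in H2O2. The groups did not overlap. Its ratio was 0.775, its log2 fold change -0.37 and its adjusted p 0.0622 in the authors' deposited table, and limma gave -0.37 with a standard error of 0.11, an interval of -0.60 to -0.14 and an adjusted p of 0.0688. ATG4C had 106 and 138 in Control and 154 and 156 in H2O2, on the other side of 0. The groups did not overlap here either, and the gap between them was smaller than that between the Control libraries. Its ratio was 1.27, its log2 fold change 0.35 and its adjusted p 0.288 in the authors' deposited table, and limma gave 0.36 with a standard error of 0.17, an interval of -0.012 to 0.73 and an adjusted p of 0.263. Without the deeper Control library the limma value of ATG4C was 0.17, and without the shallower it was 0.54. ATG4A had 112 and 133 in Control and 118 and 106 in H2O2, and ATG4D had 358 and 401 in Control and 446 and 367 in H2O2. Both overlapped between the groups, with adjusted p-values of 0.808 and 0.763 in the authors' deposited table.

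None of the 5 listed ATG8 genes passed the test. MAP1LC3B encodes LC3B, whose lipidated form is the usual marker of autophagosomes. Its normalized count was 886 and 1179 in Control and 1240.4 and 1263 in H2O2, so that the deeper Control library was the low value and the other 3 lay within a narrow range. The ratio was 1.21, the log2 fold change 0.28 and the adjusted p 0.182 in the authors' deposited table, and limma gave 0.29 with a standard error of 0.13, an interval of 0.016 to 0.57 and an adjusted p of 0.222. Without the deeper Control library the limma log2 fold change of MAP1LC3B was 0.086, and without the shallower it was 0.50. GABARAPL1 had 579.9 and 683 in Control and 703 and 742 in H2O2, and its groups did not overlap, with an adjusted p of 0.440 in the authors' deposited table. GABARAPL2 (GATE-16) had 648 and 737 in Control and 744 and 706 in H2O2, and GABARAP had 54.6 and 42.1 in Control and 47.3 and 51.0 in H2O2. The groups overlapped for both. MAP1LC3B2 had 8 and 9 reads in Control and 6 and 6 in H2O2, and its limma interval of -1.43 to 0.58 allowed more than a 2-fold fall. Of its 75-base words 13.4% occur also in transcripts of MAP1LC3B, and of those of GABARAP 25.9% occur in AC120057.2, so these counts are uncertain.

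MAP1LC3B was the most counted ATG8 gene in every library. It made up 40.7% and 44.5% of the family's normalized counts in Control and 45.3% and 45.6% in H2O2. GABARAPL1 made up 26.7% and 25.8% in Control and 25.6% and 26.8% in H2O2, and GABARAPL2 made up 29.8% and 27.8% in Control and 27.2% and 25.5% in H2O2. Per exonic length the order was different, with GABARAPL2 at 34.3% to 38.8% of the family in the 4 libraries, MAP1LC3B at 30.3% to 35.1%, GABARAPL1 at 25.5% to 26.8% and GABARAP at 2.83% to 4.38%. GABARAPL2 was above MAP1LC3B by this measure in 3 of the 4 libraries, the shallower H2O2 library being the exception. The length used merges all annotated exons of a gene, and which transcripts were expressed was not determined, so close ranks are uncertain.

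SQSTM1 (p62), NBR1 and OPTN are receptors that bind ubiquitin on cargo and ATG8 proteins on the membrane, and none of the 3 passed the test. SQSTM1 is also a known target gene of the antioxidant regulator NRF2. Its normalized count was 4089 and 6439 in Control and 5254 and 6886 in H2O2, from 4266, 6273, 5443 and 6620 reads. The shallower Control library lay above the deeper H2O2 library, and the spread within each group was larger than the difference between the group means. Its log2 fold change was 0.21 with an adjusted p of 0.445 in the authors' deposited table, and the limma interval of -0.15 to 0.61 held both 0 and a 1.5-fold rise. NBR1 had 929.8 and 935 in Control and 981 and 1065 in H2O2, and its groups did not overlap, with a log2 fold change of 0.13 and an adjusted p of 0.631 in the authors' deposited table. OPTN had 377 and 469 in Control and 406 and 474 in H2O2. TFEB, a transcription factor for lysosomal and autophagy genes, had 83.4 and 109 in Control and 80.1 and 97.8 in H2O2. The groups overlapped for OPTN and TFEB, with adjusted p-values of 0.889 and 0.861 in the authors' deposited table.

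SQSTM1 was the most counted member in every library. Per kilobase of exonic length its mean normalized count was 740, followed by GABARAPL2 at 234, MAP1LC3B at 215 and ATG9A at 204. The lowest were MAP1LC3B2 at 4.09, ATG2B at 13.0 and TFEB at 16.4. These ranks rest on the same merged length of all annotated exons, so close ones are uncertain. SQSTM1 alone held 20.8% and 28.1% of the members' summed normalized counts in Control and 24.6% and 29.7% in H2O2. With it the members summed to 19669 and 22895 in Control and 21393 and 23193 in H2O2. Without it the sums were 15580 and 16456 in Control and 16139 and 16307 in H2O2, and the H2O2 libraries lay between the Control libraries.

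Which library was left out decided how many members limma called. Without the deeper Control library it called 3 members, ATG2A, ATG16L2 and ATG4B, all lower, which is 8.33% beside 8.52% of all genes. Without the shallower Control library it called 10 members, 27.8% beside 22.2% of all genes. Of these, ATG3, ATG5, ATG4C, MAP1LC3B, GABARAPL1 and SQSTM1 were higher and ATG2A, ATG2B, ATG16L2 and ATG4B lower. Of the 4 fits, the 6 higher members were called only in this one, against the deeper Control library alone. Without the deeper H2O2 library it called 0 members beside 1.73% of all genes, and without the shallower H2O2 library 0 beside 3.13%. In each of these fits the group with a lone library is assumed to vary like the other group. Between the Control libraries the members' median log2 difference (shallower minus deeper) was 0.083, beside 0.0094 for all genes.

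**Figure D4:**
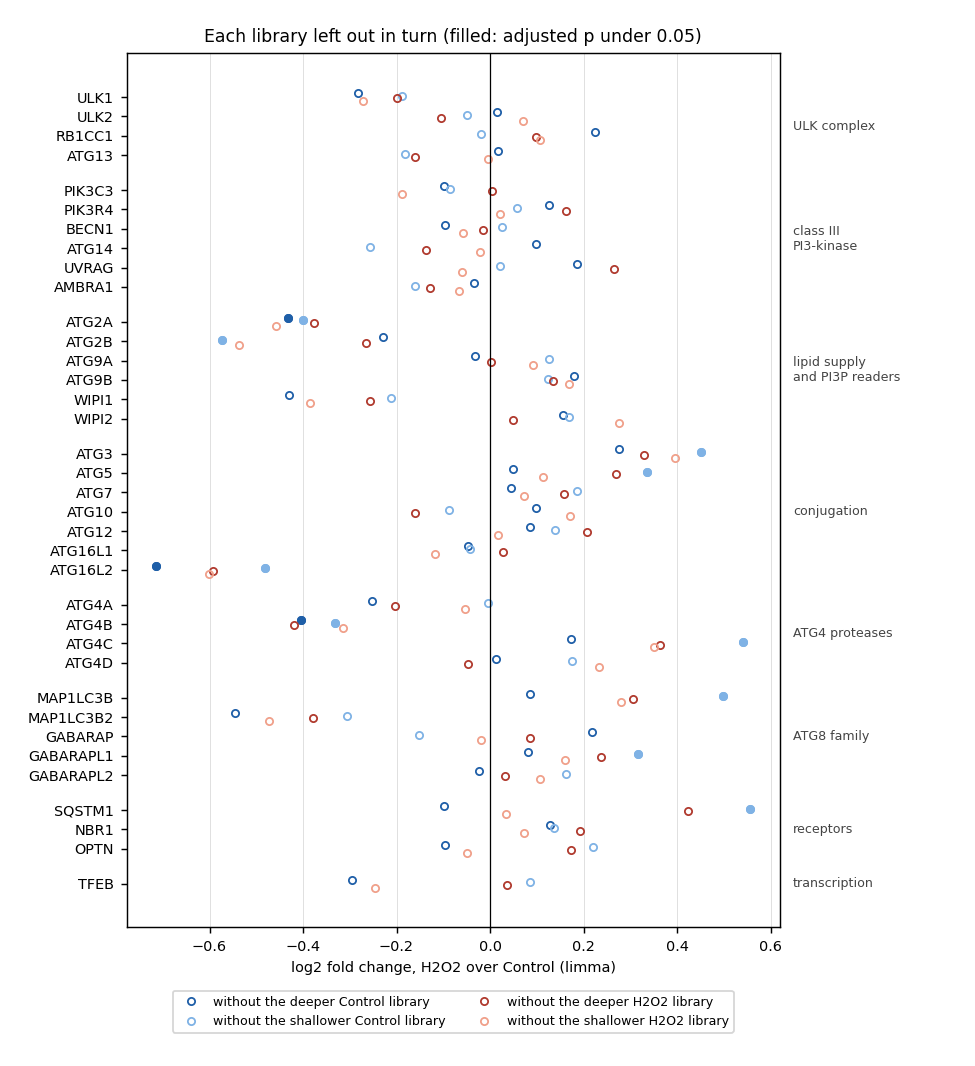
Limma log2 fold change of H2O2 over Control for each member with 1 library left out in turn, colored by the library left out, with filled points past an adjusted p of 0.05. The filled points are 3 without the deeper Control library and 10 without the shallower, and 0 when an H2O2 library is left out.

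Longer genes tended to lower fold changes across the table, and among the members the size of this depended on which were counted. Across the 10833 listed genes of mean at least 50 that matched GENCODE 29, Pearson's r between log2 exonic length and log2 fold change was -0.37 and Spearman's rho -0.45. Across all 36 members these values were -0.073 and -0.075, and across the 34 members of mean at least 50 they were -0.27 and -0.17. Between log2 exonic length and the difference between the Control libraries, Pearson's r was -0.42 for the listed genes, -0.24 for the 36 members and -0.37 for the 34. These correlations are across genes, which share libraries and are not independent replicates. Of the 6 members with the lowest fold changes, ATG2B has an exonic length of 14778 bases, ATG16L2 of 8617, ATG2A of 7870 and ATG4B of 6638. The other 2, WIPI1 at 3402 and MAP1LC3B2 at 1767, are shorter than the median member at 6231.5 and the median of those listed genes at 5236. The part of length in the differences was not tested.

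Start regions from RefSeq (GRCh38.p14) were used for 33 of the 36 members, as 43 windows of 300 bases, without ATG4D, RB1CC1 and UVRAG. Windows on chromosome 8, where RB1CC1 lies, were left out of the search for members and for all other genes. The shares of all windows below are therefore of those on other chromosomes. Both strands were searched for 6 motifs, of which TCACGTGA contains CACGTG, and TGANTCA followed by GC is also a match to TGANNNNGC. The E-box CACGTG was in 4.65% of the members' windows (ATG3 and ATG14), beside 9% of 15137 windows of listed genes and 7.26% of all 35116 windows. Its flanked form TCACGTGA, the core of the lysosomal CLEAR element that TFEB binds, was in 2.33% (ATG3), beside 1.51% of the listed genes' windows and 0.98% of all windows. TGANNNNGC, the antioxidant response element core, was in 32.6% of the members' windows (13 genes), beside 42.0% and 41.8%. TGANTCA, the AP-1 motif, was in 4.65% (ATG9B), beside 5.58% and 7.71%. TTCNNGAA, the inner part of the heat shock element, was in 4.65% (ATG3 and PIK3R4), beside 6.38% and 7.74%. TGATGNAA, the motif of ATF4 with CEBP, was in 0 of 43 windows, beside 2.09% and 3.62%. The median G and C content of the windows was 64.7% for the members and for the listed genes alike, and 58.7% for all genes.

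Genes that act beside this machinery were counted in 6 lists, 121 genes in all with a mean of at least 10, of which 8 passed the authors' threshold, where 7.19% of all listed genes did. Among 14 other selective autophagy receptors 0 passed, and the log2 fold changes in the authors' deposited table had a median of 0.073. There PHB2, the inner mitochondrial membrane receptor, had 0.20 (adjusted p 0.415) and WDFY3, a large adaptor for aggregates, -0.30 (adjusted p 0.193). Among 15 other initiation and membrane factors 0 passed and the median was 0.036 in the same deposited table. C12orf44, the older symbol of ATG101, a further subunit of the ULK complex, had a normalized count of 534 and 630.3 in Control and 707 and 793 in H2O2, with a log2 fold change of 0.36 and an adjusted p of 0.0772 in the authors' deposited table. KIAA0226 (Rubicon), an inhibitor of the PI3-kinase complex, had -0.34 with an adjusted p of 0.165 there.

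In the fusion of autophagosomes with lysosomes, 3 of 15 genes were lower, 0 were higher and 12 did not pass, where 4.62% of all listed genes were lower and 2.58% higher. ZFYVE26 (spastizin), which acts in the re-formation of lysosomes, had a normalized count of 262 and 222 in Control and 143 and 173 in H2O2. Its ratio was 0.653 with an adjusted p of 0.00648 in the authors' deposited table, and limma gave an adjusted p of 0.0407. EPG5, a tether that gives fusion its specificity, had 242 and 170.4 in Control and 144 and 128 in H2O2, and TECPR1, which binds ATG5 on lysosomes, had 309 and 353 in Control and 197 and 263 in H2O2. Their ratios were 0.660 and 0.695 with adjusted p-values of 0.0143 and 0.0157 in the authors' deposited table. By limma their adjusted p-values were 0.0838 and 0.0657. The groups did not overlap for any of the 3. This adds no support, since the 3 were named for passing the test on these libraries. Of all listed genes, 25.6% lay lower in H2O2 without overlap.

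Of 33 lysosomal membrane and hydrolase genes, 1 was lower (3.03%) and 32 did not pass, where 4.62% of all listed genes were lower. In the authors' deposited table the median log2 fold change of these 33 genes was 0.081. The lower gene was ATP6V0A1, a subunit of the proton pump that acidifies lysosomes, at 738 and 796 in Control and 545 and 589.8 in H2O2, with a ratio of 0.740 and an adjusted p of 0.0251 in the authors' deposited table and of 0.0444 by limma. CLCN7, a lysosomal chloride transporter, had a log2 fold change of -0.30 with an adjusted p of 0.197 in the same deposited table.

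Among 15 relatives and transcriptional regulators of TFEB and autophagy genes, DDIT3 was higher, FLCN was lower and 13 did not pass. Of all listed genes, 2.58% were higher and 4.62% lower. DDIT3 (CHOP), a stress-induced transcription factor, had a normalized count of 539.6 and 598 in Control and 1247 and 1384 in H2O2, with a ratio of 2.31 and an adjusted p of 8.01e-17 in the authors' deposited table and of 2.8e-05 by limma. Of its exonic length 27.2% overlaps MARS on the opposite strand. FLCN (folliculin), which keeps TFEB relatives out of the nucleus, had 279.9 and 244 in Control and 190.2 and 176 in H2O2, with a ratio of 0.698 and an adjusted p of 0.0285 in the authors' deposited table and of 0.0595 by limma. Of its 75-base words, 10.3% occur in other genes.

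Of 29 genes that act through mTORC1 and AMPK, the growth and energy sensors upstream of ULK1, 2 were lower and 27 did not pass, a share near that of all listed genes (4.62% lower). The 2 were TSC1 and TSC2, which together restrain mTORC1. TSC1 had 608 and 521 in Control and 399.6 and 450.4 in H2O2, and TSC2 had 711 and 703 in Control and 558 and 513 in H2O2. Their ratios were 0.753 and 0.757 with adjusted p-values of 0.0442 and 0.0479 in the authors' deposited table. By limma these were 0.0833 and 0.0598. The 7 lower genes of these lists had exonic lengths from 9066 bases for TECPR1 to 19626 for TSC2, and DDIT3, the higher gene, had 1307. The median was 5236 for the matched listed genes of mean at least 50. Lengths of the genes in these lists that did not pass were not compared, and the part of length was not tested. Exonic length merges the exons of all annotated transcripts of a gene and is not the length of any 1 transcript. Of the 8 genes, limma called 3 (ZFYVE26, ATP6V0A1 and DDIT3).

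**Figure D5:**
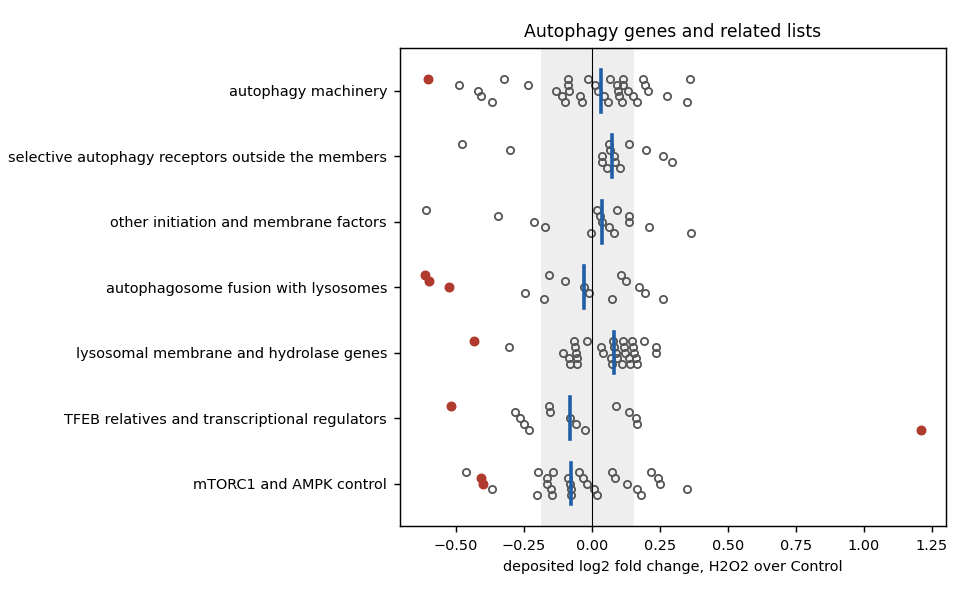
Deposited log2 fold change of H2O2 over Control for the members and for the genes of each of 6 related lists (mean normalized count of at least 10 in those lists), with red filled points past the authors' adjusted p of 0.05, blue bars at each list's median and the grey band holding the middle 50% of all listed genes of mean at least 50. The members' median of 0.034 lies beside list medians of -0.080 to 0.081, and DDIT3 stands apart on the right.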

How the data were processed

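Polyadenylated RNA of 2 Control and 2 H2O2 samples of HCT116 cells was sequenced. STAR, HTSeq, DESeq, Trim Galore, FastQC and CASAVA 1.8 are named, with the build hg19, in the submitters' processing notes. The sources used here do not give the roles or settings of these tools, or the annotation. No column of the deposited table is per sample. Its mean columns are a signal, headed baseMean, baseMeanA and baseMeanB, and were read as the authors' means of size-factor-scaled counts. The fold column is the ratio of the deposited group means, and the log2 column is its log2 as deposited. The p-value columns are headed pval and padj, and were read as the authors' DESeq p-value, raw and adjusted. The adjusted column differed by at most 3.14e-15 from a Benjamini-Hochberg adjustment of the raw one. The lowest listed mean is 5.46, and genes below it are not analysed here.

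Each group mean was solved for 2 whole counts divided by size factors (tolerance 1e-09), and the size factors equalled medians of ratios computed from those counts within 1e-12. No libraries agreed within sampling noise. The main call was the authors' adjusted p under 0.05. The alternative was limma 3.58.1 in R 4.3.3, fitted to log2(normalized count + 1) of the 4 libraries with its trend option, adjusted over all 16376 genes. Fold changes on that scale understate low genes. Alternatives were other thresholds, pseudocounts, scalings and filters on low means, and each library left out in turn. The pipeline was tested on simulated data. With 2 libraries a group, 2 residual degrees of freedom limit the precision.

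Every member is named. Full statistics are given for members past either test's threshold and for the 3 highest and 3 lowest log2 fold changes of mean at least 50, and among the related lists for genes past the authors' threshold and the 2 of smallest adjusted p. The statistics given beyond that rule were chosen with values in view. The members, lists, motifs and markers were chosen with earlier results of these data known. Exonic lengths, overlaps and shared 75-base words came from GENCODE 29 (GRCh38), matched by symbol for 81.3% of listed genes, and promoters from RefSeq. Their build differs from hg19, so no coordinate of the authors' counting was used.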

Additional observations from a re-analysis of the deposited data

How the results depend on the processing

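The libraries left out in turn are those of the deeper and shallower sequencing depth of each group, and the lone library of a group is then assumed to vary like the other group. The count of members past the threshold was 1 by the authors' test at a threshold of 0.05 or 0.01, and by limma with a pseudocount of 0.5, 1 or 5, with total count or upper quartile scaling, and with a mean of at least 10 or 50. It was 4 at an adjusted p under 0.10 in the authors' deposited table, beside 10.1% of all genes, and it ran from 0 to 10 with 1 library left out. For the related lists, 8 genes passed in the authors' deposited table. Limma called 3 with each pseudocount, with total count scaling and with either filter on low means, 2 with upper quartile scaling, and 1 to 28 with 1 library left out, with 28 of 121 without the shallower Control library, where 22.2% of all genes were called. The members' median log2 fold change of 0.034 ran from 0.0067 to 0.061 over all alternatives.

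Scaling turned the sign of 2 members near 0: ULK2, at -0.015, was 0.0034 with upper quartile scaling, and ATG10, at 0.011, was -0.012 with total count scaling. The sign turned for 16 of 36 members when 1 library was left out and held under every alternative for 20. The values then ran from -0.10 to 0.070 for ULK2, -0.019 to 0.22 for RB1CC1, -0.18 to 0.017 for ATG13, -0.19 to 0.0035 for PIK3C3, -0.097 to 0.025 for BECN1, -0.26 to 0.098 for ATG14, -0.059 to 0.27 for UVRAG, -0.031 to 0.13 for ATG9A, -0.16 to 0.17 for ATG10, -0.12 to 0.028 for ATG16L1, -0.047 to 0.23 for ATG4D, -0.15 to 0.22 for GABARAP, -0.024 to 0.16 for GABARAPL2, -0.098 to 0.56 for SQSTM1, -0.095 to 0.22 for OPTN and -0.29 to 0.085 for TFEB. The cause was not tested. No paired analysis was possible because the recovered libraries carry no replicate numbers.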

Other observations

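Ratios between paralogs within a library were looked at after their values were seen, and they carry no test. The normalized count of ATG4B over that of ATG4C was 11.3 and 9.16 in the deeper and shallower Control libraries and 6.40 and 5.89 in the H2O2 libraries. Neither gene passed the test alone, and they had the lowest and the highest log2 fold change of the ATG4 genes. WIPI1 over WIPI2 was 0.341 and 0.393 in Control and 0.231 and 0.296 in H2O2. The groups did not overlap for either ratio. They overlapped for ATG2A over ATG2B, at 1.48 and 1.93 in Control and 1.79 and 1.56 in H2O2, and for ATG9B over ATG9A, at 0.147 and 0.126 in Control and 0.144 and 0.149 in H2O2. ULK2 over ULK1 was 0.363 and 0.326 in Control and 0.436 and 0.367 in H2O2. Its groups did not overlap either, with their nearest libraries almost equal. The share of all gene pairs without overlap was not computed. Among single listed genes, 26.3% lay higher in H2O2 without overlap and 25.6% lower.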
